A study of Mus musculus with 12 samples.

Results

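The urea cycle and the breakdown of amino acids were followed across REV-ERB deletion and SR9009 treatment in plated mouse hepatocytes through 35 genes, listed by function with earlier results of these data known. All 35 were among the 37991 genes of the table and all 35 passed the filter on low values (at least 1 FPKM in at least 3 libraries), as did 11213 genes in all. FPKM is a fragment count scaled by transcript length and by library size. It measures transcripts and not enzyme protein or activity. The genes belong to the urea cycle (6), the breakdown of phenylalanine and tyrosine (5), of tryptophan (5) and of proline (2), the transaminases with glutamate and serine breakdown (6), the methionine cycle with transsulfuration (6), glycine cleavage (2) and the branched-chain keto acid dehydrogenase (3).

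The 12 libraries formed 4 groups of 3. KO-labelled SR9009 and KO-labelled DMSO cells came from mice injected with AAV8 carrying Cre and GFP behind TBG, a promoter active in hepatocytes, and control SR9009 and control DMSO cells from mice injected with the same construct without Cre. All mice were males of 10 weeks that carried floxed REV-ERBα (Nr1d1) and REV-ERBβ (Nr1d2) genes, and their hepatocytes were taken 2 weeks after the virus. In culture the cells received 10 µM SR9009, a synthetic compound described as a REV-ERB agonist, or its solvent DMSO, for 8 h. No group carried Cre without floxed genes, so an effect of Cre and an effect of REV-ERB loss cannot be told apart. Whether replicates were separate mice or separate plates is not in the labels, so p-values cover the spread among these libraries alone, and that spread may be technical.

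Hepatocytes take up amino acids from the portal blood, strip off the nitrogen in transaminase and dehydrogenase reactions, and pass the carbon skeletons to glucose synthesis, ketone synthesis or the citric acid cycle. The freed ammonia enters the urea cycle, in which Cps1 and Otc act in mitochondria and Ass1, Asl and Arg1 in the cytosol. Many of these enzymes are induced in liver by fasting hormones such as glucagon and glucocorticoids, and the REV-ERB receptors are transcriptional repressors of the circadian clock.

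Relative to control DMSO library 1, control SR9009 library 1 had a depth of 55.5%, KO-labelled DMSO library 1 one of 63.5%, and the remaining libraries lay between 77.1% and 92.3%. Within a group, r across genes of the log2 values was 0.982 to 0.992. Nr1d1 itself averaged 22.1 and 17.7 FPKM in KO-labelled SR9009 and DMSO cells and 19.5 and 18.5 FPKM in control SR9009 and DMSO cells, so its total level over the gene did not mark the deletion. Arntl, the clock gene that REV-ERB represses, averaged 5.41 ± 0.437 and 6.49 ± 0.307 FPKM in KO-labelled SR9009 and DMSO cells, against 0.218 ± 0.150 and 0.214 ± 0.0796 FPKM in control SR9009 and DMSO cells (SD, n = 3 each). The summed level of 5 hepatocyte markers was 30140 to 30880, 31850 to 34050, 26980 to 29120 and 30260 to 30890 FPKM in KO-labelled SR9009, KO-labelled DMSO, control SR9009 and control DMSO libraries. The 7 Kupffer cell markers summed to 36.7 to 37.5, 29.1 to 36.3, 37.5 to 40.8 and 34.1 to 42.7 FPKM in the same order, the 6 endothelial markers to 8.27 to 8.73, 8.60 to 12.8, 5.85 to 6.95 and 5.43 to 6.17 FPKM. The 5 cholangiocyte markers summed to 34.5 to 38.7, 29.1 to 38.8, 39.4 to 61.7 and 42.1 to 44.7 FPKM, the 6 stellate cell markers to 1.58 to 1.93, 1.79 to 2.68, 1.47 to 2.19 and 1.61 to 1.87 FPKM, and the leukocyte markers to at most 0.717 FPKM. No marker was at 0 in every library. The hepatocyte and endothelial sums were higher and the cholangiocyte sums lower in KO-labelled than in control cells of the same treatment, without overlap. Of the 5 hepatocyte markers 3 were called higher in KO-labelled cells in each medium (limma, adjusted p under 0.05). Over all tested genes 11.7% were called higher in DMSO and 12.9% under SR9009. Markers of a list did not all move together. In DMSO, the cholangiocyte markers Spp1 and Sox9 averaged 24.4 ± 3.09 and 9.09 ± 1.37 FPKM in KO-labelled cells, against 39.9 ± 0.863 and 2.67 ± 0.532 FPKM in control cells (log2 changes -0.70 and 1.46). The Kupffer cell markers Marco and Cd68 averaged 1.66 ± 0.462 and 23.7 ± 2.95 FPKM in KO-labelled and 9.52 ± 1.34 and 18.3 ± 1.86 FPKM in control DMSO cells (-1.99 and 0.36). The part of these marker differences in the genotype results was not tested. In such bulk samples, fewer cells of a type and less RNA per cell cannot be told apart.

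Transcripts of most of the enzymes stood high in these cells. The median of their mean levels over the 12 libraries was 121 FPKM, against 9.01 FPKM for all tested genes, and 19 of the 35 averaged at least 100 FPKM. Gnmt, which disposes of surplus methyl groups, stood highest at 1038 FPKM, followed by Ass1 at 888, Cps1 at 657 and Hpd at 596 FPKM. Afmid, the formamidase of tryptophan breakdown, and Amt, a subunit of the glycine cleavage system, stood lowest at 5.28 and 5.37 FPKM. The median coefficient of variation within a group of 3 libraries was 4.50%, and the widest spreads were those of Afmid (22.9%) and Asl (16.6%), averaged over the groups. Together the 35 genes made up 1.38% to 1.49% of the summed FPKM in KO-labelled SR9009 libraries, 1.52% to 1.59% in KO-labelled DMSO, 1.10% to 1.16% in control SR9009 and 1.25% to 1.27% in control DMSO libraries, and the 4 ranges did not overlap. Some gene models overlap a neighbour, so that without a known strand setting their reads could be shared. This holds for Kmo with Fh1 (5255 bases, Fh1 at 65.2 FPKM on average, above Kmo at 33.1 FPKM), Prodh with Dgcr6 (11276 bases) and Sds with Plbd2 (651 bases, Plbd2 at 25.6 FPKM). Afmid and RP23-268N22.1 overlap on the same strand (13981 bases, RP23-268N22.1 at 8.005 FPKM, above Afmid at 5.28 FPKM). So do Hpd and Gm17627 (10919 bases, Gm17627 at 0.0534 FPKM). A strand setting would not separate the reads of these same-strand pairs. Got2 and Bhmt have processed copies in the table, Got2-ps1 and Bhmt-ps1, with which reads could also be shared.

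**Figure D1:**
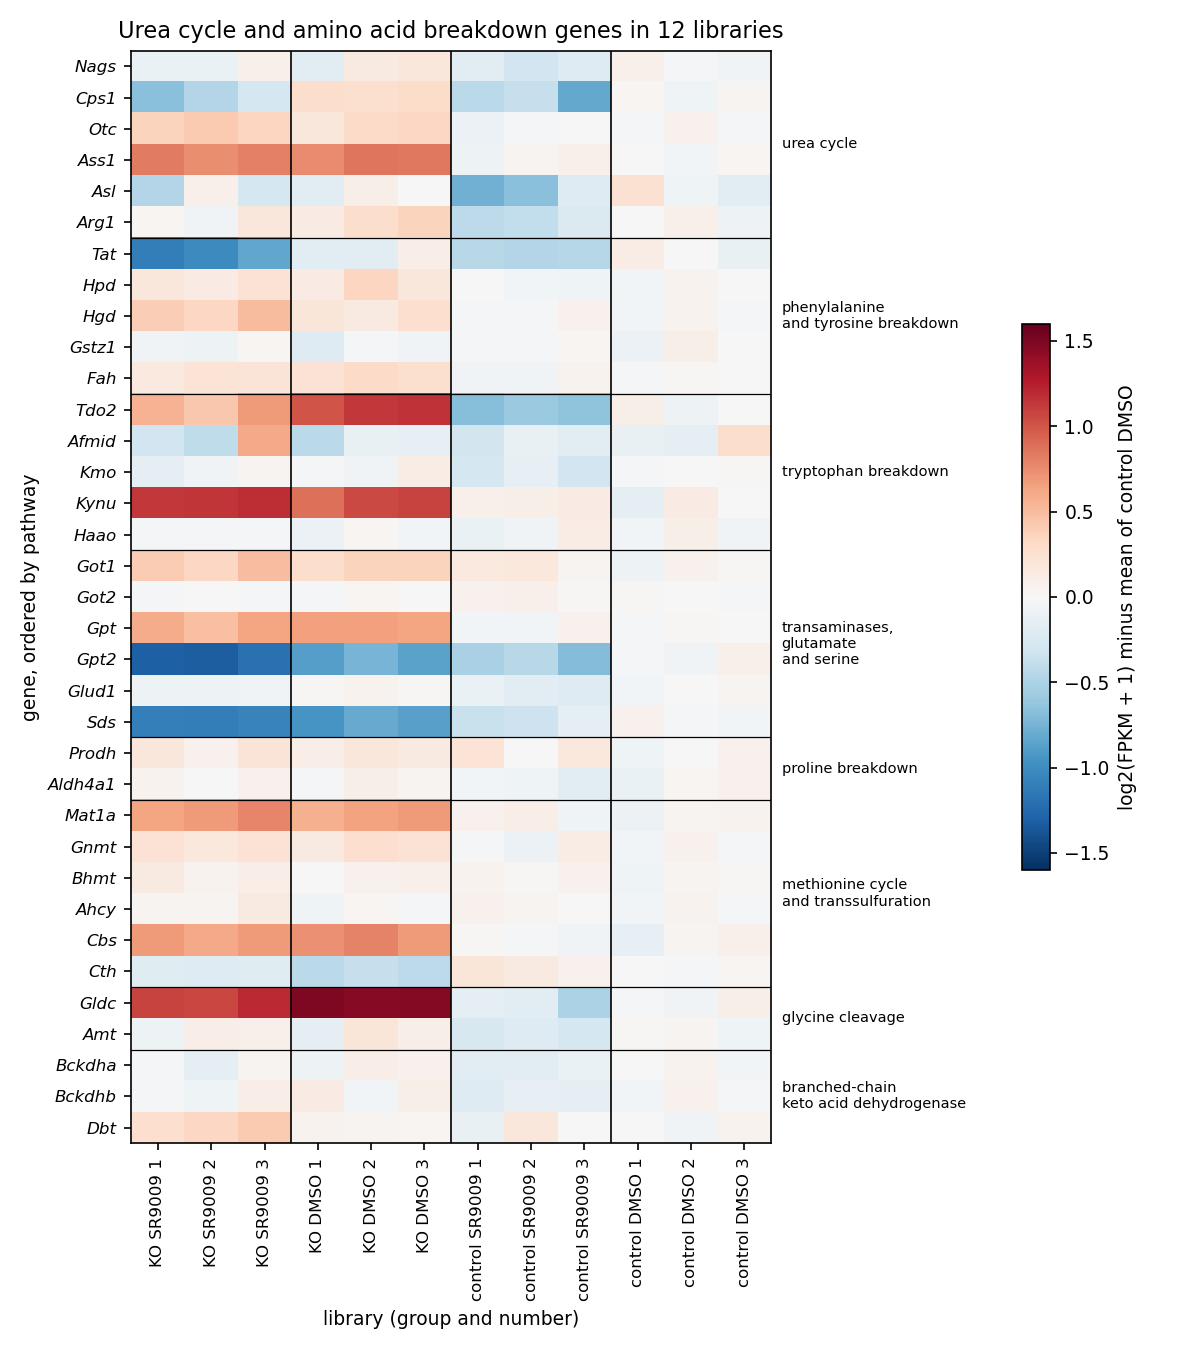
Difference of each of the 35 genes in each of the 12 libraries from the mean of the control DMSO group, on the log2(FPKM + 1) scale, with genes grouped by role and the groups ordered KO SR9009, KO DMSO, control SR9009 and control DMSO. Gldc, Tdo2, Kynu and Ass1 are higher in all 6 KO-labelled libraries than in all 6 control libraries, and Sds and Gpt2 are lower.

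KO-labelled cells kept in DMSO had higher transcript levels for enzymes at several separate steps and lower levels for a few. The largest rises were those of Gldc, which decarboxylates glycine, at 2.87-fold, Tdo2, which opens the ring of tryptophan, at 2.14-fold, Kynu, which cleaves kynurenines, at 2.09-fold, and Ass1, which joins citrulline to aspartate, at 1.76-fold. Sds, which deaminates serine to pyruvate, was 1.86-fold lower, and Gpt2, the mitochondrial alanine transaminase, 1.78-fold lower. In all, 17 of 35 genes (48.6%) changed, 14 higher and 3 lower, where 20.0% of all tested genes did, 11.7% higher and 8.32% lower (limma across all tested genes, adjusted p under 0.05). The 35 genes stood higher than tested genes at large (medians of 121 and 9.01 FPKM). No share of called genes, here or below, was compared at matched levels. The 3 libraries of the genotypes did not overlap for 19 of the 35 genes, against 41.2% of all tested genes. The median log2 change was 0.05 over the 35 genes and 0.04 over all tested genes. The summed hepatocyte markers were higher in KO-labelled cells as well, at 31850 to 34050 FPKM, against 30260 to 30890 FPKM in control DMSO libraries.

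In the urea cycle, 3 of 6 genes rose and none fell. Ass1 (ENSMUSG00000076441, mm9 chromosome 2, 31325727 to 31376192) stood at 1093, 1166 and 1154 FPKM in the 3 KO-labelled DMSO libraries, against 648, 627 and 660 FPKM in control DMSO libraries. Every KO-labelled library lay far above every control library, and the log2 change was 0.82 ± 0.05 (SE, limma adjusted p = 4.48e-07). Otc, which makes citrulline from carbamoyl phosphate, stood at 86.0, 93.8 and 95.3 FPKM in KO-labelled and 73.9, 79.5 and 74.2 FPKM in control DMSO cells, again without overlap, with a log2 change of 0.27 (adjusted p = 0.00517). Arg1, which releases urea from arginine, averaged 353 ± 26.9 and 295 ± 17.0 FPKM in KO-labelled and control DMSO cells, a log2 change of 0.26 (adjusted p = 0.0381). That call was not firm. Without control DMSO library 1 or 3, KO-labelled DMSO library 2 or 3, or KO-labelled SR9009 library 1, the adjusted p of Arg1 was 0.0515 to 0.137. Cps1 (ENSMUSG00000025991, mm9 chromosome 1, 67169600 to 67277833), the entry enzyme of the cycle, had 882, 865 and 890 FPKM in KO-labelled and 737, 691 and 743 FPKM in control DMSO libraries. The Cps1 groups did not overlap, but the log2 difference of 0.28 ± 0.11 (SE) did not pass the test (adjusted p = 0.105) in a fit whose spread is shared with the SR9009 groups, where the SDs of Cps1 were 70.1 and 80.5 FPKM in KO-labelled and control cells. Asl, which splits argininosuccinate, and Nags, which makes the activator of Cps1, had log2 differences of -0.02 and 0.05 and did not pass the test.

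Transcripts for the breakdown of aromatic amino acids changed unevenly from step to step. For tryptophan, 2 of 5 genes rose. Tdo2 (ENSMUSG00000028011, mm9 chromosome 3, 81761012 to 81780124), the first and rate-limiting step in liver, stood at 353, 385 and 394 FPKM in KO-labelled DMSO libraries, against 187, 166 and 175 FPKM in control DMSO libraries. Kynu stood at 22.0, 24.9 and 25.3 FPKM in KO-labelled and 10.3, 12.7 and 11.6 FPKM in control DMSO libraries. For both genes the lowest KO-labelled library was well above the highest control library, with log2 changes of 1.10 ± 0.07 for Tdo2 (SE, limma adjusted p = 3.72e-07) and 1.00 ± 0.08 for Kynu (adjusted p = 1.98e-06). Between these steps, Afmid and Kmo (kynurenine hydroxylase) had log2 differences of -0.22 and 0.01, and Haao, which follows Kynu, one of -0.04, and these 3 did not pass the test. For phenylalanine and tyrosine, Hpd, Hgd and Fah, enzymes on the path down to fumarate and acetoacetate, had log2 changes of 0.22, 0.20 and 0.26. Gstz1, which acts between Hgd and Fah, averaged 132 ± 8.62 and 142 ± 8.88 FPKM in KO-labelled and control DMSO cells and was not called. The call of Fah (adjusted p = 0.00225) held in every alternative tried. Those of Hpd and Hgd were lost without control DMSO library 1 or 3, that of Hpd also without KO-labelled DMSO library 2, and that of Hgd also without KO-labelled DMSO library 1 or 3, with adjusted p of 0.0665 to 0.0925 for Hpd and 0.0769 to 0.122 for Hgd. Tat, the tyrosine transaminase that starts the path, had 307, 304 and 371 FPKM in KO-labelled and 376, 343 and 319 FPKM in control DMSO libraries. The Tat groups overlapped (log2 difference -0.08, adjusted p = 0.566), as did those of Gstz1.

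Among the transaminases and the enzymes of glutamate and serine, 2 of 6 rose and 2 fell, and the alanine transaminases moved in opposite directions. Gpt, the form found mainly in the cytosol, stood at 151, 151 and 149 FPKM in KO-labelled and 94.6, 97.1 and 95.1 FPKM in control DMSO libraries. Gpt2 (mm9 chromosome 8, 88016475 to 88051459) stood at 85.9, 94.6 and 87.5 FPKM in KO-labelled and 156, 152 and 168 FPKM in control DMSO libraries. The 3 KO-labelled libraries thus held more Gpt than Gpt2 and the 3 control libraries more Gpt2 than Gpt, on a scale that is per length. The log2 changes were 0.65 ± 0.05 for Gpt (SE, adjusted p = 3.25e-06) and -0.82 ± 0.07 for Gpt2 (adjusted p = 5.77e-06). Sds (mm9 chromosome 5, 120926540 to 120933941) had 28.4, 31.2 and 30.0 FPKM in KO-labelled and 58.2, 54.3 and 53.9 FPKM in control DMSO libraries. Its groups stood far apart, with a log2 change of -0.87 ± 0.07 (adjusted p = 1.70e-06). Got1, the cytosolic aspartate transaminase, rose by 0.33 on the log2 scale (adjusted p = 0.00211), whereas the mitochondrial Got2 and Glud1, which releases ammonia from glutamate, differed by 0.00 and 0.03 and were not called.

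In sulfur amino acid metabolism, 3 of 6 genes rose and 1 fell, and the consecutive enzymes of transsulfuration went opposite ways. Mat1a, which makes S-adenosylmethionine, stood at 292, 308 and 317 FPKM in KO-labelled and 184, 202 and 204 FPKM in control DMSO libraries. Cbs, which joins homocysteine to serine, stood at 114, 120 and 110 FPKM in KO-labelled and 62.5, 70.8 and 72.8 FPKM in control DMSO libraries. Both were higher in every KO-labelled library, with log2 changes of 0.63 ± 0.07 for Mat1a (SE, adjusted p = 2.31e-05) and 0.74 ± 0.06 for Cbs (adjusted p = 3.80e-06). Cth, which then cleaves cystathionine to cysteine, stood at 73.9, 76.8 and 74.6 FPKM in KO-labelled and 100.1, 97.2 and 102 FPKM in control DMSO libraries, with no overlap and a log2 change of -0.40 ± 0.05 (adjusted p = 6.92e-05). Gnmt rose by 0.22 on the log2 scale (adjusted p = 0.0246). Its call was lost without control DMSO library 1 or 3 or KO-labelled DMSO library 2 or 3, where the adjusted p was 0.0735 to 0.0927. Bhmt, which remethylates homocysteine, and Ahcy, which makes it from S-adenosylhomocysteine, differed by 0.05 and -0.02 and were not called.

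Glycine cleavage showed the largest single change. Gldc (ENSMUSG00000024827, mm9 chromosome 19, 30172939 to 30249908) stood at 54.4, 52.8 and 53.1 FPKM in KO-labelled and 18.2, 17.8 and 19.8 FPKM in control DMSO libraries. The libraries of a genotype lay close together (SD 0.846 FPKM in KO-labelled and 1.06 FPKM in control cells) and the genotypes far apart, and the log2 change was 1.47 ± 0.09 (SE, adjusted p = 2.23e-07). Amt, which works in the same complex, averaged 5.77 ± 0.789 and 5.52 ± 0.245 FPKM in KO-labelled and control DMSO cells and was not called. The branched-chain keto acid dehydrogenase subunits Bckdha, Bckdhb and Dbt (log2 differences 0.03, 0.06 and 0.04) and the proline enzymes Prodh and Aldh4a1 (0.14 and 0.03) did not pass the test.

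**Figure D2:**
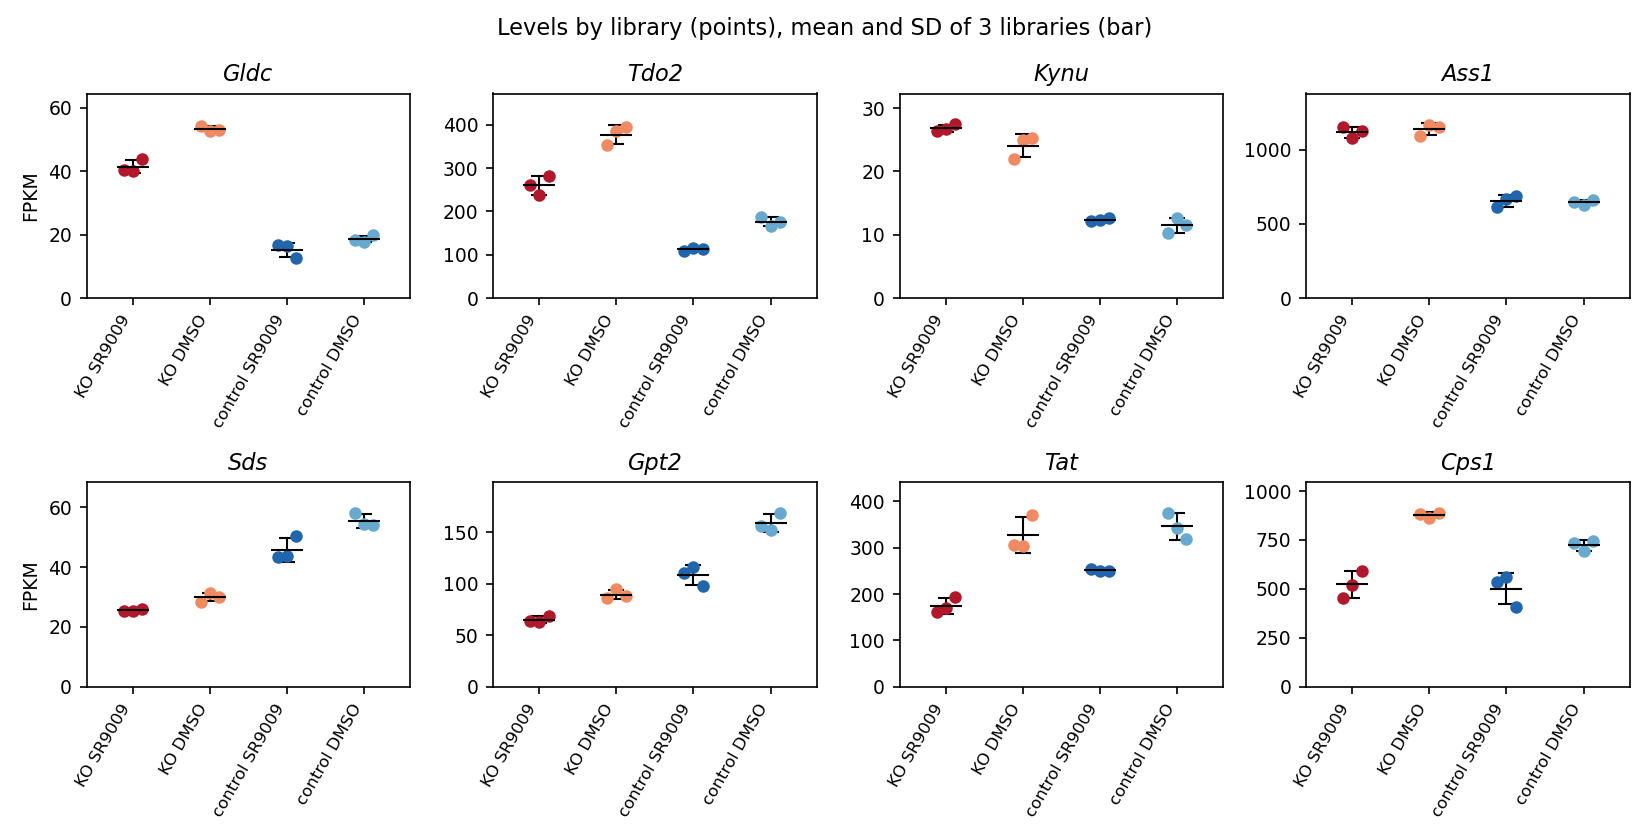
FPKM of selected genes in each library (points, n = 3 per group) with the group mean and SD (line and error bar), groups ordered KO SR9009, KO DMSO, control SR9009 and control DMSO, each panel with its own axis from 0. Gldc, Tdo2, Ass1 and Kynu lie higher in both KO groups than in the control group of the same treatment, and Tat is lowest in the KO SR9009 group.

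The same genotype contrast was available in separate libraries, those treated with SR9009. There 19 of 35 genes (54.3%) changed, 15 higher and 4 lower, where 20.4% of all tested genes did, 12.9% higher and 7.43% lower. All 17 genes called in DMSO were called again under SR9009 in the same direction, which was 89.5% of the 19. The share of all tested genes called in DMSO that were called again was not determined. Both comparisons came from the same fit and share its estimate of the spread. The groups did not overlap for 25 of the 35 genes, against 34.9% of all tested genes, and the median log2 change was 0.19 over the 35 genes and 0.06 over all tested genes.

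Gldc stood at 40.5, 40.2 and 43.8 FPKM in KO-labelled SR9009 libraries, against 16.7, 16.4 and 12.7 FPKM in control SR9009 libraries. Ass1 stood at 1149, 1077 and 1126 FPKM in KO-labelled and 612, 665 and 684 FPKM in control SR9009 libraries. Again no KO-labelled library overlapped with a control library, with log2 changes of 1.39 for Gldc and 0.77 for Ass1 (limma adjusted p = 3.63e-07 and 7.17e-07). Under SR9009, Tdo2 (1.19), Kynu (1.05), Cbs (0.68), Mat1a (0.66), Gpt (0.57), Sds (-0.81), Gpt2 (-0.72) and Cth (-0.33) also kept the direction they had in DMSO, these values being log2 changes. Otc reached 97.1, 102 and 96.8 FPKM in KO-labelled and 70.9, 74.9 and 75.9 FPKM in control SR9009 libraries, a log2 change of 0.41 (adjusted p = 2.36e-04). Tat and Dbt were called under SR9009 and not in DMSO. For Tat the log2 change was -0.53 (adjusted p = 0.00123). For Dbt, the core subunit of the branched-chain complex, it was 0.32 (adjusted p = 0.0143), and that call was lost without control SR9009 library 1 or KO-labelled SR9009 library 3 (adjusted p up to 0.0649). The calls of Hpd and Gnmt under SR9009 were also lost without single libraries. These were KO-labelled SR9009 library 1 or 3 for both and control SR9009 library 1 or 2 for Gnmt. The adjusted p was then 0.0540 to 0.0857 for Hpd and 0.0690 to 0.0907 for Gnmt. With only the 2 SR9009 groups fitted, it was 0.0746 for Dbt, 0.0917 for Gnmt and 0.0654 for Fah. Without the 2 shallowest libraries it was 0.0618 for Dbt and 0.0741 for Gnmt.

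**Figure D3:**
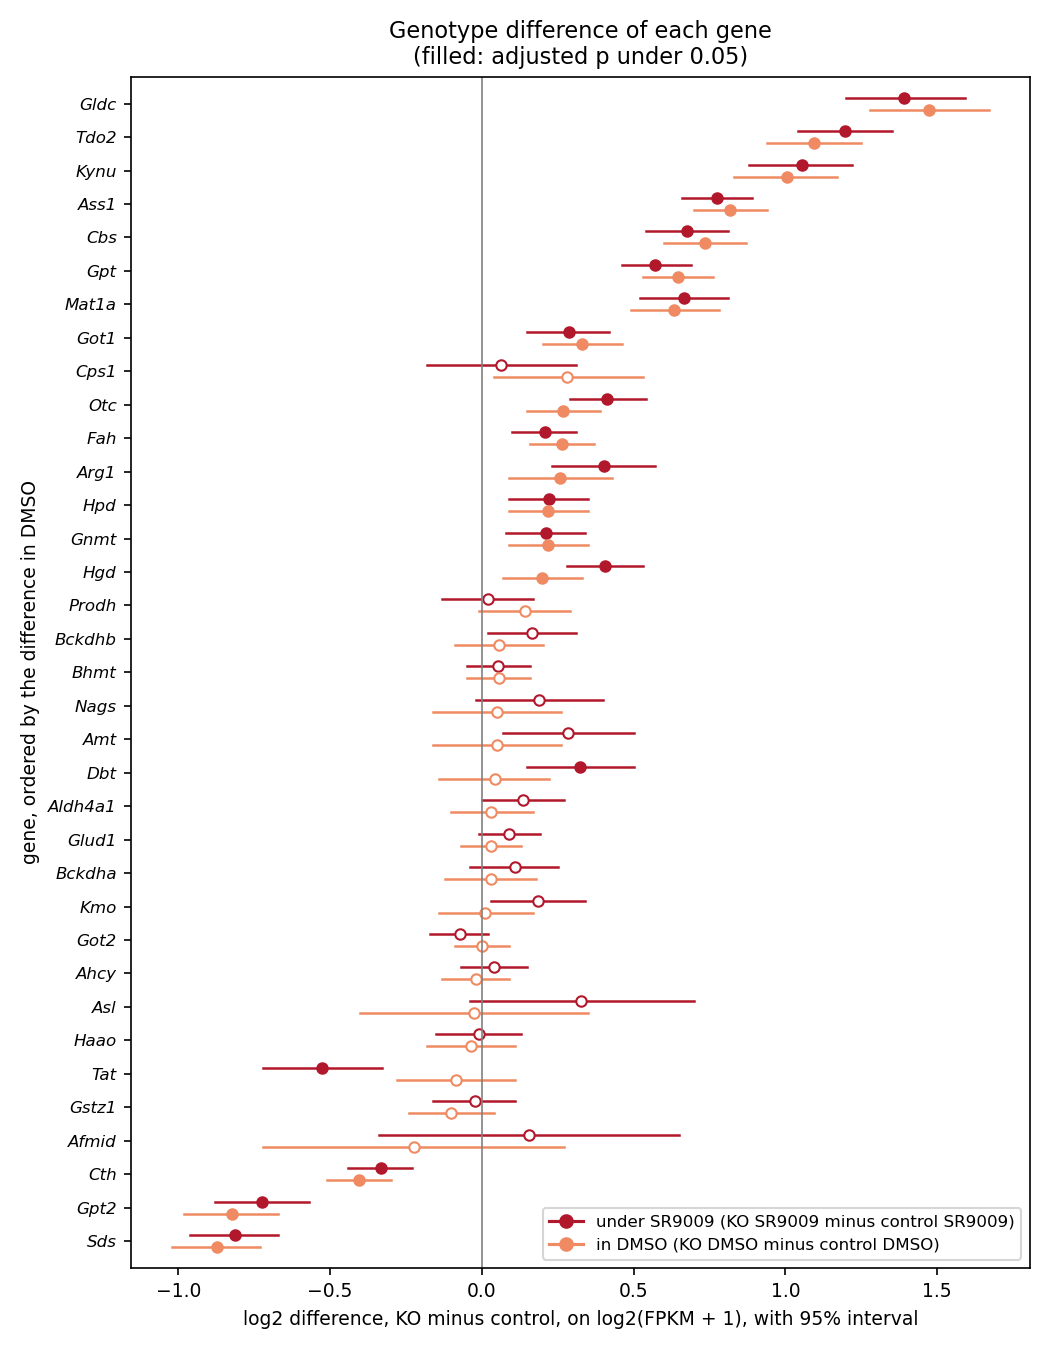
Log2 change of each of the 35 genes between KO-labelled and control cells, under SR9009 and in DMSO, with 95% confidence intervals from the limma fit and filled points for genes past an adjusted p of 0.05. The values are similar for most genes in both media, from 1.47 for Gldc to -0.87 for Sds in DMSO, and Tat is the gene that is called under SR9009 with a negative sign and not in DMSO.

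The sequence just before the transcription start was examined for those of the 35 genes with a known start site, called or not. RefSeq start sites of the build GRCm38.p6 were available for 26 of the 35 genes, in 28 windows of 250 bases. These coordinates belong to another build than the mm9 positions above. The windows of the strongly raised genes Gldc, Tdo2, Ass1 and Cbs and of the SR9009-lowered gene Tat are shown 5′ to 3′ on the gene's strand, with the letters CCAAT (or its complement ATTGG) and the E-box CACGTG, a sequence bound by clock activators, in capitals.
Gldc (chr19:30175442-30175691, minus strand): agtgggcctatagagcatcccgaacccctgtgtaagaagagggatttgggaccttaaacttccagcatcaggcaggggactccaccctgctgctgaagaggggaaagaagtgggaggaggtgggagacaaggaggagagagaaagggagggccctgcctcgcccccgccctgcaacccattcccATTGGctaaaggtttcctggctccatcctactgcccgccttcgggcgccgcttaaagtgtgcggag
Tdo2 (chr3:81975729-81975978, minus strand): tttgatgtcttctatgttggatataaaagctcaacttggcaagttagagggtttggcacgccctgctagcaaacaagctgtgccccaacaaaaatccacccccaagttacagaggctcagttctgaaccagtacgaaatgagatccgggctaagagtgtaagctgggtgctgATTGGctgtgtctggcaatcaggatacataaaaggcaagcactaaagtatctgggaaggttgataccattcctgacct
Ass1 (chr2:31470020-31470269, plus strand): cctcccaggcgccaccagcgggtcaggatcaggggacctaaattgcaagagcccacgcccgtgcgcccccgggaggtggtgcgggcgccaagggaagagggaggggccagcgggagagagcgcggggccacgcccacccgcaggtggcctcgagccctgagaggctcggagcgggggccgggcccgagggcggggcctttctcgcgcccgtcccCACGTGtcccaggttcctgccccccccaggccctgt
Cbs (chr17:31637206-31637455, minus strand): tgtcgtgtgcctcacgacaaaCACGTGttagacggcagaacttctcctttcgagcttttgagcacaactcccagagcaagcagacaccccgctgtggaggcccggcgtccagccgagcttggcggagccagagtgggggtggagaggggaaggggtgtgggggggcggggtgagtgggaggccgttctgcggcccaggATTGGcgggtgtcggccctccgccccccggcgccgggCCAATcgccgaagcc
Tat (chr8:109990186-109990435, plus strand): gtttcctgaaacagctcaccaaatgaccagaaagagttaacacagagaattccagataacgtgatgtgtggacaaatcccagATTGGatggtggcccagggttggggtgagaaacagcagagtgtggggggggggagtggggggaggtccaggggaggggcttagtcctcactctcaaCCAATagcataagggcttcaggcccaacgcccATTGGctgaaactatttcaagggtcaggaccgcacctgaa
The element bound by REV-ERB and ROR receptors, searched on both strands as A, 2 bases of any kind, T, 1 base of any kind and then GGTCA, was found in 1 of the 28 windows, that of Bhmt, and in 2.04% of 32851 windows of all genes. Its letters were in none of the printed windows. CACGTG was found in 2 of the 28 windows, those of Ass1 and Cbs, and in 6.02% of all windows. In Ass1 it began 36 bases before the start and in Cbs 229 bases before it. CCAAT was found in 14 of the 28 windows (50.0%) and in 33.8% of all windows, with 3 matches in Tat and 2 in Cbs. The C/EBP sequence TTGCNNAA was found in 1 member window (Hgd) and 9.56% of all, and the glucocorticoid receptor half-site AGAACA in 2 (Bckdhb and Haao) and 16.1% of all. The window of the lowered gene Gpt2, which is not printed, held none of these sequences. A match is a description of the letters and not evidence of binding, and sites farther away were not examined.

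SR9009 lowered the transcripts of a small set of these enzymes in control cells. Among the 7 of 35 genes that changed (20.0%), all fell, where 8.24% of all tested genes changed, 3.69% higher and 4.55% lower. They were Tdo2 (1.56-fold lower), Gpt2 (1.47-fold), Cps1 (1.44-fold), Tat (1.38-fold), Arg1, Sds and Glud1. The groups did not overlap for 16 of the 35 genes, against 25.0% of all tested genes, and the median log2 change was -0.04 over the 35 genes and -0.02 over all tested genes. The count rested on single libraries, being 4 without control DMSO library 1 or without control DMSO library 2, and on the shared fit, being 3 when only these 2 groups were fitted. The summed hepatocyte markers were also lower with SR9009, in KO-labelled and in control cells, without overlap, and their part in the SR9009 results was not tested.

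Tdo2 stood at 110, 116 and 112 FPKM in control SR9009 libraries, against 187, 166 and 175 FPKM in control DMSO libraries. Gpt2 stood at 111, 117 and 97.9 FPKM in control SR9009 and 156, 152 and 168 FPKM in control DMSO libraries. Neither gene's groups overlapped, with log2 changes of -0.64 ± 0.07 for Tdo2 (SE, adjusted p = 2.34e-04) and -0.55 ± 0.07 for Gpt2 (adjusted p = 7.11e-04). Cps1 had 535, 560 and 410 FPKM in control SR9009 and 737, 691 and 743 FPKM in control DMSO libraries. Library 3 was lower than the other SR9009 libraries, but all 3 lay below every DMSO library (log2 change -0.54, adjusted p = 0.0116, and 0.0511 when only these 2 groups were fitted). Tat had 255, 249 and 251 FPKM in control SR9009 and 376, 343 and 319 FPKM in control DMSO libraries, with no overlap and a log2 change of -0.46 (adjusted p = 0.00887).

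The smaller changes were less firm. Arg1 fell by 0.35 (adjusted p = 0.0191), Sds by 0.28 (adjusted p = 0.0252) and Glud1 by 0.16 (adjusted p = 0.0466) on the log2 scale. Arg1 was no longer called without control DMSO library 1 or 2 or control SR9009 library 1 or 2 (adjusted p 0.0594 to 0.0785), and Sds without any control DMSO library or control SR9009 library 1 or 2 (adjusted p 0.0560 to 0.106). The call of Glud1 was lost in 17 of 19 alternatives. Asl had a log2 difference of -0.55, as large as that of Cps1, with an adjusted p of 0.0746, and its libraries ranged from 212 to 312 FPKM in control SR9009 and from 318 to 428 FPKM in control DMSO cells, wide ranges that did not overlap. No gene of the methionine cycle, transsulfuration, proline, glycine cleavage or branched-chain groups was called, against 8.24% of all tested genes. Gldc and Amt, with log2 differences of -0.27 to -0.25, were still lower in every SR9009 library than in any DMSO library. The groups also did not overlap for 2 of 3 branched-chain, 1 of 6 methionine cycle and transsulfuration and 0 of 2 proline genes. Among all tested genes 25.0% did not overlap.

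In KO-labelled cells SR9009 changed 8 of 35 genes (22.9%), 5 lower and 3 higher, where 9.87% of all tested genes changed, 5.32% higher and 4.56% lower. Tat fell 1.87-fold, Cps1 1.68-fold, Tdo2 1.45-fold and Gpt2 1.37-fold, the same 4 genes that led in control cells. Gldc also fell, and Cth, Hgd and Dbt rose. The groups did not overlap for 15 of the 35 genes, against 32.3% of all tested genes, and the median log2 change was -0.03 over the 35 genes and 0.00 over all tested genes. The count was 4 without KO-labelled DMSO library 1, without KO-labelled DMSO library 3 or without KO-labelled SR9009 library 1, and 5 without KO-labelled DMSO library 2 or without KO-labelled SR9009 library 2.

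Tat (ENSMUSG00000001670, mm9 chromosome 8, 112514337 to 112523703) stood at 160, 170 and 194 FPKM in KO-labelled SR9009 libraries, against 307, 304 and 371 FPKM in KO-labelled DMSO libraries. Cps1 stood at 453, 521 and 594 FPKM in KO-labelled SR9009 and 882, 865 and 890 FPKM in KO-labelled DMSO libraries. The SR9009 libraries of both genes lay far below the DMSO libraries, with log2 changes of -0.90 ± 0.09 for Tat (SE, adjusted p = 7.8e-05) and -0.76 ± 0.11 for Cps1 (adjusted p = 0.00131). Tdo2 stood at 260, 237 and 282 FPKM in KO-labelled SR9009 and 353, 385 and 394 FPKM in KO-labelled DMSO libraries. Gpt2 stood at 63.5, 62.8 and 68.7 FPKM in KO-labelled SR9009 and 85.9, 94.6 and 87.5 FPKM in KO-labelled DMSO libraries. Both were lower in every SR9009 library, by 0.54 for Tdo2 (adjusted p = 5.74e-04) and by 0.45 for Gpt2 (adjusted p = 0.00194) on the log2 scale. All 4 calls held in every alternative tried.

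The other 4 calls in KO-labelled cells depended on single libraries. Gldc fell by 0.36 on the log2 scale (adjusted p = 0.0252), and Cth, Dbt and Hgd rose by 0.21, 0.30 and 0.21 (adjusted p = 0.0150, 0.0381 and 0.0408). Without any of the KO-labelled DMSO libraries, or KO-labelled SR9009 library 1 or 2, the adjusted p of Gldc was 0.0669 to 0.0923. That of Cth was 0.0547 to 0.0596 without KO-labelled DMSO library 1 or 3 or KO-labelled SR9009 library 1 or 2. The calls of Dbt and Hgd were each lost in 13 of 19 alternatives. With quantile normalization 8 genes were called in KO-labelled cells, 1 higher and 7 lower, and Hgd and Cth were not among them (adjusted p 0.0707 and 0.0506). With libraries rescaled to the same sum 1 was higher and 5 lower.

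Of the genes called in each genotype, Cps1, Gpt2, Tat and Tdo2 were shared, which was 57.1% of the 7 in control and 50.0% of the 8 in KO-labelled cells, all lower. The share of calls common to both genotypes over all tested genes was not determined. The difference between the SR9009 effects (KO-labelled minus control) was tested directly by limma's interaction term. It called 0 of 35 genes, where it called 0.0268% of all tested genes, 3 in number. At an unadjusted p under 0.05 it held 3 of the 35 genes, against 7.02% of all tested genes. These were Tat at -0.44 (limma adjusted p = 0.549), Hgd at 0.21 (adjusted p = 0.663) and Dbt at 0.28 (adjusted p = 0.673) on the log2 scale. The 95% interval of the difference ran from -0.72 to -0.17 for Tat, from -0.56 to 0.13 for Cps1, and from -0.12 to 0.32 for Tdo2 and likewise for Gpt2, and a p above the threshold does not show that the genotypes responded alike.

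**Figure D4:**
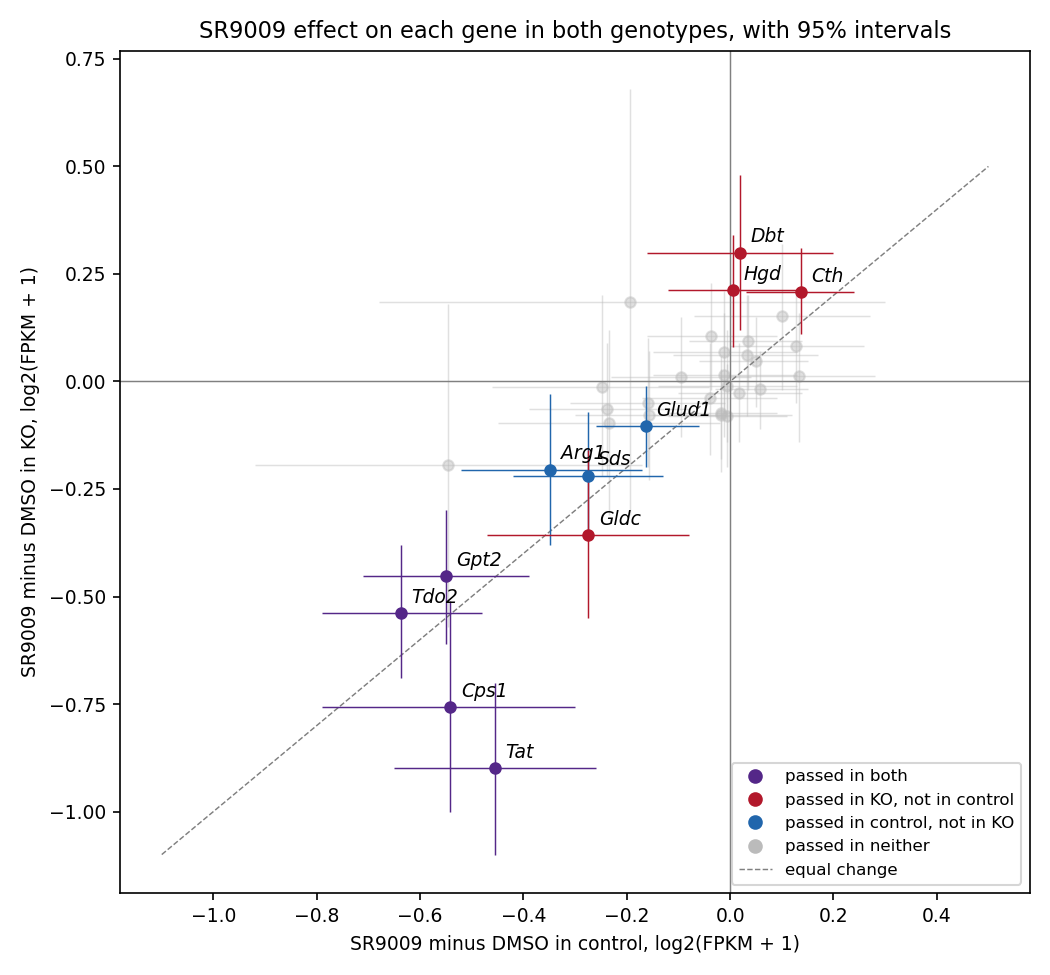
Log2 change between SR9009 and DMSO of each of the 35 genes in KO-labelled cells (vertical axis) against that in control cells (horizontal axis), with 95% confidence intervals from the limma fit, colours for the genotypes in which the adjusted p was under 0.05 and a dashed line of equal change. Tat, Cps1, Tdo2 and Gpt2, called in both genotypes, lie between -0.45 and -0.90 on both axes.

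The 4 groups ordered differently from gene to gene. Tdo2 averaged 260 ± 22.6 FPKM in KO-labelled SR9009 cells, 377 ± 21.2 in KO-labelled DMSO cells, 113 ± 3.25 in control SR9009 cells and 176 ± 10.7 in control DMSO cells, and no library of any of these groups overlapped with another group's. Gpt2 averaged 65.0 ± 3.25, 89.4 ± 4.61, 108 ± 9.48 and 159 ± 8.50 FPKM in the same groups, so it was lowest where deletion and compound met, again with no overlap. Ass1 followed genotype with a log2 difference between SR9009 and DMSO of -0.03 in KO-labelled and 0.02 in control cells. Cps1 was called for the compound in each genotype and not for genotype in either medium. It averaged 523 ± 70.1 FPKM with SR9009 and 879 ± 13.0 FPKM in DMSO in KO-labelled cells. In control cells the averages were 501 ± 80.5 and 724 ± 28.3 FPKM. In DMSO every KO-labelled library of Cps1 still lay above every control library.

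Further genes of amino acid breakdown outside the 35 also differed by genotype. Of 37 such genes, 13 were higher and 5 lower in KO-labelled than in control cells in DMSO (48.6%, against 20.0% of all tested genes), and 15 higher and 4 lower under SR9009 (51.4%, against 20.4%). Csad, which acts in taurine synthesis, averaged 67.8 ± 3.53 and 132 ± 4.46 FPKM in KO-labelled and control DMSO cells (log2 change -0.95, adjusted p = 2.12e-07). Hal, which starts histidine breakdown, and Gls2, the liver glutaminase, rose by 1.06 and 0.94 on the log2 scale (adjusted p = 1.80e-05 for each). SR9009 lowered 1 of the 37 in KO-labelled cells (2.70%, against 9.87% of all tested genes changed) and 2 in control cells (5.41%, against 8.24%), and raised none. These shares rest on 1 and 2 genes, too few to set the list apart from all genes. Pcca, a subunit of propionyl-CoA carboxylase, had log2 differences of -0.19 in KO-labelled cells (adjusted p = 0.267) and -0.35 in control cells (adjusted p = 0.0391). The control call was lost in 13 of 19 alternatives (adjusted p up to 0.151), among them without any control DMSO library, control SR9009 library 1 or 3, or library 2 or 3 of either KO-labelled group, and the interaction did not pass the test (adjusted p = 0.858). Cdo1, which oxidizes cysteine, fell in both genotypes, with log2 changes of -0.56 in KO-labelled and -0.47 in control cells (adjusted p = 6.46e-05 and 3.63e-04).

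Among 14 transporters of amino acids and urea cycle intermediates, 3 were higher and 3 lower in KO-labelled than in control cells, both in DMSO and under SR9009 (42.9% each time, against 20.0% and 20.4% of all tested genes). In DMSO the calls with the smallest adjusted p were Aqp9, a channel for glycerol and urea (log2 change -0.58), the glutamine transporter Slc38a3 (0.65), the aromatic amino acid transporter Slc16a10 (0.69) and Slc43a1, which carries large neutral amino acids (-0.73). SR9009 changed 2 of the 14 in KO-labelled cells, 1 higher and 1 lower (14.3%, against 9.87% of all tested genes), and 3 in control cells, 1 higher and 2 lower (21.4%, against 8.24%). The largest of these changes was in Slc7a2, which imports arginine and other cationic amino acids. Slc7a2 stood at 9.22, 8.02 and 10.5 FPKM in KO-labelled SR9009 and 22.1, 19.2 and 21.7 FPKM in KO-labelled DMSO libraries. It stood at 14.6, 16.0 and 13.2 FPKM in control SR9009 and 32.2, 31.0 and 29.9 FPKM in control DMSO libraries. SR9009 libraries lay below DMSO libraries throughout, with log2 changes of -1.11 in KO-labelled and -1.04 in control cells (adjusted p = 2.60e-05 and 6.05e-05).

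Of 13 regulators of amino acid breakdown, 10 passed the filter on low values, and Onecut1, Ppargc1a and Ppm1k did not. In KO-labelled against control cells 2 were higher and 2 lower in DMSO, and 1 was higher and 3 lower under SR9009, where 20.0% and 20.4% of all tested genes changed. SR9009 lowered 6 of the 10 in KO-labelled cells and 4 in control cells, where it lowered 4.56% and 4.55% of all tested genes, and raised none. Klf15, a transcription factor that drives amino acid breakdown in fasting, stood at 6.26, 7.74 and 9.59 FPKM in KO-labelled SR9009 and 13.9, 15.9 and 16.6 FPKM in KO-labelled DMSO libraries. It stood at 6.58, 7.07 and 6.85 FPKM in control SR9009 and 11.4, 16.0 and 14.4 FPKM in control DMSO libraries. The SR9009 libraries lay below all DMSO libraries in each genotype, with log2 changes of -0.91 in KO-labelled and -0.92 in control cells (adjusted p = 0.00158 and 0.00191). Hnf4a, a receptor required for hepatocyte identity, fell by 0.60 in KO-labelled and by 0.40 in control cells on the log2 scale (adjusted p = 0.00173 and 0.0225), and the glucagon receptor Gcgr by 0.40 and by 0.23 (adjusted p = 3.51e-04 and 0.0127). In control cells the call of Hnf4a was lost without any control DMSO library or without control SR9009 library 3 (adjusted p 0.0542 to 0.0761), and that of Gcgr without control DMSO library 2 (adjusted p 0.0513). In KO-labelled cells the calls of Klf15, Hnf4a and Gcgr held in every alternative tried. The other lowered regulators lost theirs there in 6 to 10 of 19 alternatives. The remaining call in control cells was lost in 4 of 19.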

How the data were processed

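RNA-seq values of 12 libraries came as one table that the authors deposited, made with HISAT2 and StringTie on mm9, per the submitters' processing notes. The header names no unit. The authors' values were read as FPKM, since columns sum to 538521 to 604449. Tool versions, annotation and strandedness are not stated in the labels. Total counts are unknown, and relative depth comes from the smallest steps between values. Values were taken as log2(FPKM + 1), which understates changes of low genes, and the 11213 genes that reached 1 FPKM in 3 or more libraries were fitted with limma 3.58.1 (trend, robust) in R 4.3.3, with a mean per group, 8 residual degrees of freedom and Benjamini-Hochberg adjustment over all tested genes at 0.05. Folds are ratios of mean FPKM. The fit was tested on simulated data. The 35 genes were given by function, and they and the other lists were chosen with earlier results of these data known. All 35 could be named, with values per library for those of smallest adjusted p and for Cps1 and Otc, and up to 4 genes per comparison from each other list. A gene that this rule names is not reported here. Promoter windows are RefSeq GRCm38.p6. Each comparison was repeated under 19 alternatives (18 for the interaction).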

Additional observations from a re-analysis of the deposited data

How the results depend on the processing

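No call among the 35 genes changed sign in any alternative. Calls held in all 19 alternatives for 13 of 17 genes in KO-labelled against control cells in DMSO, for 15 of 19 under SR9009, for 4 of 8 for SR9009 in KO-labelled cells and for 3 of 7 in control cells. For SR9009 in KO-labelled cells the count of called genes among the 35 was 5 with no filter on low values and 4 without the 2 shallowest libraries, and 4 to 9 with single libraries left out. In control cells it was 3 with only the groups compared, 4 without the 2 shallowest libraries and 4 to 8 with single libraries left out. With single libraries left out, 13 to 18 of the 35 genes were called for genotype in DMSO and 16 to 20 under SR9009, where rescaling to the same sum called 22. Over all tested genes, SR9009 in control cells called 376 with only the groups compared, 609 without the 2 shallowest libraries and 530 to 919 with single libraries left out. In KO-labelled cells the last range was 603 to 1438. KO-labelled against control cells under SR9009 called 1518 with only the groups compared. The interaction called 1 gene with no filter, 1 after quantile normalization, 1 without the 2 shallowest libraries, and 0 to 5 with single libraries left out. With libraries rescaled to the same sum, all genes split into 1617 higher and 698 lower for genotype in DMSO and 1858 and 655 under SR9009, against 1307 and 933, and 1450 and 833. With a replicate block, 17, 19, 7, 6 and 0 of the 35 genes were called in the genotype comparison in DMSO and under SR9009, for SR9009 in KO-labelled and control cells, and in the interaction, where 0 of all genes were called. Same-numbered libraries deviated together with correlations of only -0.112 to 0.122, so the numbers were not taken as pairs. In the group pair of KO-labelled DMSO and control SR9009 all 3 libraries correlated best with their own number, a hint from the data and not the design. The causes of these shifts were not tested, and some alternatives also use fewer libraries or a different number of genes. Depth limits the rarest genes most, and calls between an adjusted p of 0.01 and 0.05 were the ones most often lost.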
